A study of Mus musculus with 65 samples.

Results

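The effect of voluntary wheel running on gene expression in the hippocampus was compared between young mice and midlife mice that ran a lot. The quantity reported for each gene is a difference of differences, young runners minus young sedentary mice, less midlife high runners minus midlife sedentary mice. Of the 65 libraries of the study, 26 hippocampus libraries entered this contrast, with 5 young runners and 4 sedentary mice of that age, and 5 high runners and 12 sedentary mice at midlife. All were C57BL/6J males. Young runners had a wheel for 12 weeks that began at an age of 1 to 2 months and ended at 4 to 5 months, and midlife runners had one from 12 to 15 months, while sedentary mice of each age had none. The duration is that of the study's methods, and some of its supplementary tables name the young groups by a smaller number of weeks, which may be an age or a duration. Midlife runners were sorted into high and low runners after the fact, at 10000 wheel rotations per night, whereas the young runners were not sorted. Mice were housed in groups, and the high runners 1388 and 9926 shared a cage. Each library was poly(A) RNA from 1 mouse, dissected after perfusion with saline. The young and midlife libraries lay on different sequencing lanes, so age and sequencing cannot be told apart in a level, and only the difference of the within-age effects was tested. Young sedentary mouse 18606 was left out, and 6 midlife low runners entered the fit only to estimate the spread between mice.

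Blood vessels of the brain are wrapped in a basement membrane, a thin sheet of collagens, laminins and proteoglycans that endothelial cells, pericytes, astrocytes and fibroblasts lay down together. The hippocampus also lies against the ventricle, whose wall is lined by ependymal cells with beating cilia and which holds the choroid plexus, the epithelium that makes cerebrospinal fluid. Running is known to raise the birth of granule neurons in the dentate gyrus and to act on hippocampal vessels.

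Genes of motile cilia were among those with the highest differences. Promoters are shown here for 3 ciliary genes that were called higher, Hydin (log2 difference 2.79), Dnah10 (3.0) and Spag6l (1.01). Dnah10 lies outside the motile cilia list, whose median difference was 2.00. All 3 windows hold the letters marked below, while other ciliary windows lacked them, so these do not stand for the rest. RFX transcription factors switch on ciliary genes through a site known as the X-box, of which GTTGCC, in capitals on either strand (GGCAAC on the reverse), is the first part. Each sequence is the RefSeq window from 250 bases before to 50 bases after the start of the gene, 5′ to 3′ on its own strand, in GRCm38.p6. Hydin, which encodes a protein of the central pair of the ciliary axoneme, has its window on the plus strand at chr8:110266727-110267026. Spag6l, which encodes another central pair protein, has its window on the minus strand at chr16:16829314-16829613. Dnah10, a heavy chain of the dynein motor that bends the cilium, has its window on the plus strand at chr5:124724835-124725134.
Hydin: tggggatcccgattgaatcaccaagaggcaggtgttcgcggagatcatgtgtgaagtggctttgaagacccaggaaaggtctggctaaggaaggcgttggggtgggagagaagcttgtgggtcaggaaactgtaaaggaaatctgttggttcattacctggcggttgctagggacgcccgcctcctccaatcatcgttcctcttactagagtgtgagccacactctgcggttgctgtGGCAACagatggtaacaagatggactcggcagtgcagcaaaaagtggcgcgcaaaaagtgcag
Spag6l: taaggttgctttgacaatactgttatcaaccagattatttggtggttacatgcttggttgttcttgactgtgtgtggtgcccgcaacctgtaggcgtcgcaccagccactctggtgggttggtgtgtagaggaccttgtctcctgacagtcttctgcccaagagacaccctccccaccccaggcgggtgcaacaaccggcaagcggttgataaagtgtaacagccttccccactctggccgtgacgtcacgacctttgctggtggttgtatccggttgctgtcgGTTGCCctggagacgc
Dnah10: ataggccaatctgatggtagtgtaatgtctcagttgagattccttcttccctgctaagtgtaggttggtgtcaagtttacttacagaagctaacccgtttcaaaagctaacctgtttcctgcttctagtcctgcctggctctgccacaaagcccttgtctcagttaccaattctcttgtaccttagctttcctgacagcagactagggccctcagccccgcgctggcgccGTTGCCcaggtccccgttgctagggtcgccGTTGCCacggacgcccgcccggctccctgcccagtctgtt
The window of Dnah10 held 2 matches and those of Hydin and Spag6l 1 each. Of the 15 genes in the motile cilia list, 13 had a RefSeq window and 7 of these held the 6 letters, or 53.8%, against 3821 of 27025 genes with a window, or 14.1%. Of the axonemal dynein heavy chain genes, the family of Dnah10, 3 of 12 windows held them, or 25%. A match describes letters and not a bound site.

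Total counts on genes ranged from 20442741 to 39470420 in the 9 young libraries and from 25530878 to 53075773 in the 17 midlife libraries of the contrast. The marker lists for dentate granule cells and CA1 pyramidal cells were expressed in every group, with mean log2 levels from 5.02 to 6.19 and from 5.96 to 6.77 (mean log2(CPM + 0.5), where CPM stands for counts scaled to library size). The markers of the choroid plexus epithelium differed sharply between libraries of 1 group. Over 22 genes, their mean log2 level was 4.69 to 5.72 in the 5 young runners. It was 0.61 to 1.63 in young sedentary mice 18605, 18626 and 18681 but 3.86 in mouse 18627. It was 0.30 to 0.48 in midlife high runners 1388, 7785, 9926 and 3597 but 4.59 in mouse 6332. Midlife sedentary mice spread from 0.22 to 5.52, and mice 9555, 23886 and 6967 lay above 3 at 5.52, 3.31 and 3.32. The score of the motile cilia list was 2.73 to 3.05 in young runners, 0.62 to 1.97 in young sedentary mice, 0.63 to 2.40 in midlife high runners and 0.38 to 2.60 in midlife sedentary mice. Meningeal and fibroblast markers scored 3.0 to 3.74 in young runners, 2.03 to 3.52 in young sedentary mice, 1.66 to 2.54 in midlife high runners and 1.90 to 3.01 in midlife sedentary mice. Thalamic markers scored 3.75 to 4.03 in young runners and 3.34 to 3.53 in young sedentary mice, against 3.28 to 3.57 and 3.38 to 3.85 in the midlife groups. In bulk tissue, more cells of a type and more RNA per cell cannot be told apart. The counts of the lists that follow are also given without the 5 libraries that stood apart in their group by the choroid plexus score (18627, 6332, 9555, 23886 and 6967), where these differ. Since they were chosen by that score, leaving them out moved by construction the difference of genes that follow it. Leaving out 18627 and 6332 raises it, while leaving out midlife sedentary mice 9555, 23886 and 6967 lowers it. The median of the choroid plexus list was 3.07 with all libraries, 8.69 without 18627 and 6332, and 5.18 without the 5.

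**Figure D1:**
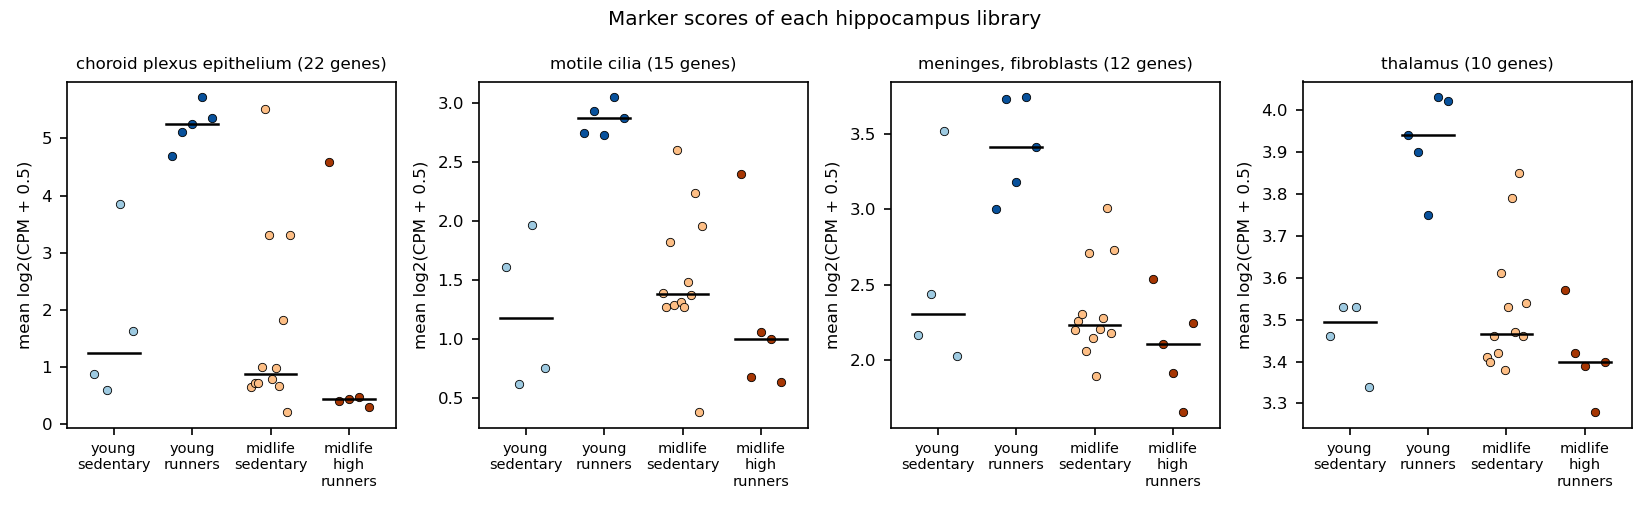
Mean log2(CPM + 0.5) of 4 marker lists on the y axis, one point per hippocampus library, by group, with a bar at the group median and panels with their own scales that do not start at 0. The choroid plexus score was high in all 5 young runners, in young sedentary mouse 18627, in midlife high runner 6332 and in 3 of the 12 midlife sedentary mice.

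To ask whether running acted differently at the 2 ages, the contrast was fitted for each gene in edgeR (quasi-likelihood F-test), and a gene was called at a false discovery rate (FDR, Benjamini-Hochberg) below 0.05. Of 15407 genes tested, 659 were called (4.28%), 428 of them higher in the young effect than in the midlife effect (2.78% of genes tested) and 231 lower (1.5%). An unadjusted p below 0.05 was found for 3926 of the 15407 genes, and for 1052 with the choroid plexus score as a covariate. The counts of lists at that threshold given below are to be read against these shares. The genes called higher had the larger differences, with a median of 0.93 on the log2 scale against -0.35 for the genes called lower, and 199 of the 202 called differences above 1 in size were positive. The median over all genes tested was -0.02. Genes called higher had a median young part of 0.78 and a median midlife part of -0.17, and genes called lower had medians of -0.23 and 0.11. The young part was the larger one in 613 of the 659 genes. The parts had opposite signs in 611 called genes (92.7%), against 60.3% of all genes tested. Young runners and young sedentary mice did not overlap in 522 of the called genes, and this held for 16.3% of all genes tested. Midlife high runners and midlife sedentary mice did not overlap in 4 of them, against 0.169% of all genes tested. Opposite signs and groups that do not overlap both favour a call, so these shares among called genes are raised by the calling itself.

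**Figure D2:**
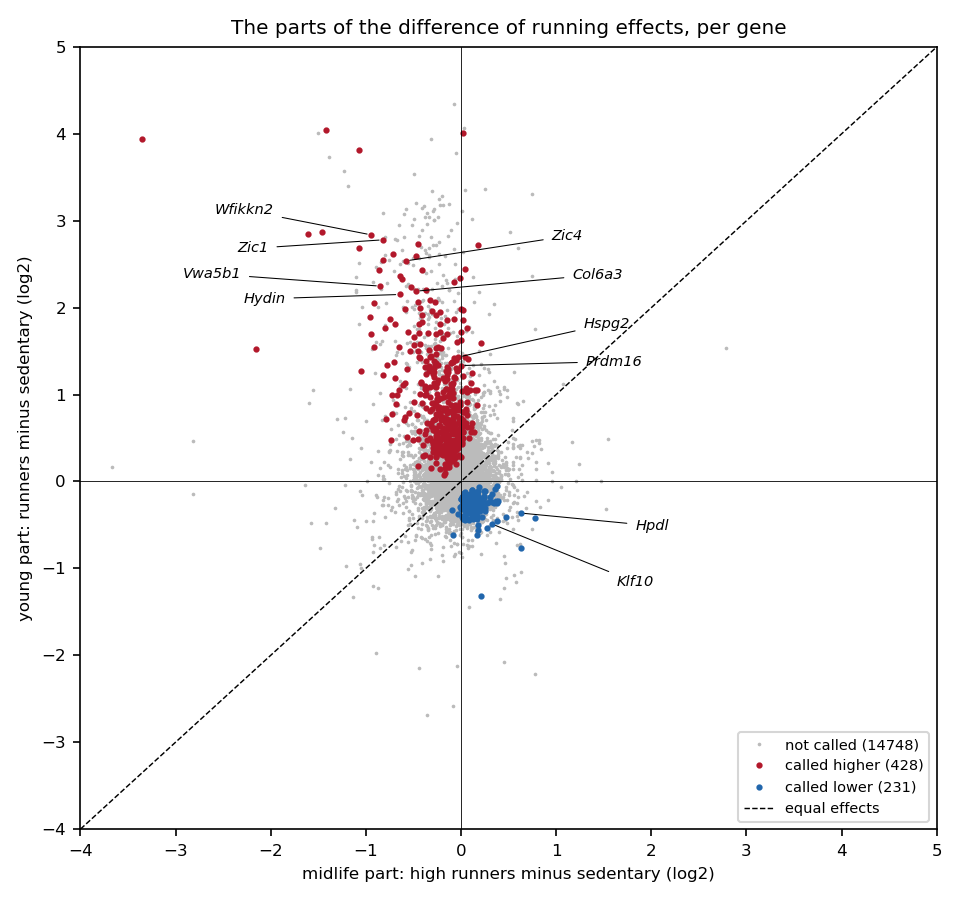
Each point is a gene, with the midlife part (high runners minus sedentary, log2) on the x axis and the young part (runners minus sedentary, log2) on the y axis, red and blue for the 428 genes called higher and the 231 called lower, and a dashed line where both effects would be equal. The red points spread upward along the y axis and lie mostly left of 0, while the blue points stay close to the origin, and 7 genes, 1 of them called, lie outside the axes.

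Prdm16, which encodes a zinc finger regulator of transcription, gave the smallest p of all genes. Prdm16 (chr4:154316125-154636873, GRCm38, minus strand) was at 37.2, 41.1, 29.7, 40.7 and 39.3 CPM in the young runners and at 14.8, 13.1, 17.6 and 14 CPM in the young sedentary mice. It was at 23.4, 16.6, 19.0, 16.5 and 22.2 CPM in the midlife high runners, and in the midlife sedentary mice the lowest, median and highest values were 16.3, 18.4 and 30.4 CPM. The young runners thus lay above every young sedentary mouse, while the midlife groups overlapped. Its difference of effects was 1.34 ± 0.18 (log2, SE), with an edgeR FDR of 0.00057, made of a young part of 1.33 ± 0.15 and a midlife part of 0.00 ± 0.11. It was called in 40 of the 42 alternative analyses and was the 1 gene called once the choroid plexus score entered the fit as a covariate, where its difference was 1.03 ± 0.17 (edgeR FDR 0.0171).

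Collagen, laminin and other matrix genes were called in the positive direction alone. Of 42 collagen chain genes tested, of which only some belong to basement membranes, 11 were called higher and none lower, and their median difference was 0.94. Of 11 laminin chain genes, 5 were called higher and none lower, with a median of 0.50. Of 15 other basement membrane and matrix genes, 5 were called higher and none lower, with a median of 0.31. The study chose basement membrane genes as a theme on these samples, so the lists are not independent evidence of a direction. No endothelial marker was called among 14 (median 0.06) and 1 of 11 mural cell markers was (median 0.18), while 3 and 4 members of these lists had an unadjusted p below 0.05. The medians of the collagen, laminin and matrix lists were 0.45, 0.42 and 0.14 after adjustment for the choroid plexus score, where none of their members was called by edgeR, but 14, 6 and 5 had an unadjusted p below 0.05. Without the 5 libraries named above, 21 collagen chains, 5 laminin chains and 7 of the other matrix genes were called higher, with medians of 1.03, 0.53 and 0.64. In that fit 989 of all 15359 genes tested were called higher, against 428 of 15407 in the main fit.

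Hspg2 encodes perlecan, the heparan sulfate proteoglycan of basement membranes. It was at 27.9, 32.5, 27.0, 41.5 and 33.1 CPM in young runners and at 13.4, 10.8, 13.4 and 10.4 CPM in young sedentary mice. Midlife high runners were at 27.2, 20.6, 16.9, 16.4 and 17.2 CPM, and midlife sedentary mice at 14.3 to 33.6 CPM with a median of 19.6. Perlecan thus separated the young groups without overlap and not the midlife groups. Its difference was 1.46 ± 0.23 (log2, SE; edgeR FDR 0.00462), with a young part of 1.43 ± 0.19 and a midlife part of -0.03 ± 0.14. With the choroid plexus covariate the difference was 1.05 ± 0.21 (unadjusted p 1.6e-05).

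Among laminins, the heterotrimers that form the first sheet of a basement membrane, Lamb2 had the smallest p. Lamb2 was at 32.4, 37.9, 37.8, 42.6 and 34.3 CPM in young runners and at 26.8, 27.9, 31.3 and 28.5 CPM in young sedentary mice. In midlife it was at 29.8, 32.8, 31.2, 27.9 and 31.5 CPM in high runners and at 29.3 to 38.4 CPM in sedentary mice, with a median of 33.8. It lay above the sedentary range in every young runner, and the midlife groups overlapped. The difference for Lamb2 was 0.50 ± 0.10 (edgeR FDR 0.0151) and stayed at 0.43 ± 0.11 after adjustment for the choroid plexus score. The differences of the other called laminins were 1.21 for Lama5, 1.03 for Lama1, 0.64 for Lamc3 and 0.59 for Lama2. With that score in the fit they were 0.60, 0.86, 0.50 and 0.41. Nid1 and Nid2 encode nidogens, which tie laminin to collagen IV, and had differences of 0.78 and 1.72, while Tinagl1 and Fbln5, a matrix glycoprotein and an elastic fibre protein, had 0.80 and 0.90. Adjusted for the score, these 4 differences were 0.57, 0.57, 0.41 and 0.57.

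The collagens called higher covered several classes. Col5a3, a fibril-forming chain, was at 5.12 to 6.56 CPM in young runners and 2.3 to 3.42 CPM in young sedentary mice, with a difference of 1.37 ± 0.24 (edgeR FDR 0.0102). Col1a1 encodes the main chain of collagen I, a product of fibroblasts, and was at 7.96, 11.7, 10.5, 14.2 and 9.80 CPM in young runners, and at 3.45, 4.66, 8.13 and 4.33 CPM in young sedentary mice. The highest of these sedentary values, in mouse 18627, lay within the range of the runners. In midlife Col1a1 was at 3.84 to 5.03 CPM in high runners and 3.50 to 5.89 CPM in sedentary mice, and its difference was 1.16 ± 0.24 (edgeR FDR 0.0169). Col1a2, its partner chain, had a difference of 1.48. Col6a3, Col6a5 and Col6a6, chains of the beaded collagen VI, had differences of 2.66, 2.13 and 1.78. Col4a5, a chain of the network collagen of basement membranes, had 1.40, and Col15a1 and Col18a1, which sit at the outer face of basement membranes, had 0.99 and 1.80. Col27a1 and Col2a1, fibrillar chains known from cartilage, had 0.73 and 0.82. Adjustment for that score lowered the difference of Col18a1 to 0.81 and that of Col4a5 to 0.63, and left that of Col15a1 at 1.1 and of Col6a3 at 2.56. Cped1, a member of the meningeal list with Col1a1, Col1a2 and 9 more genes, had a difference of 1.35, and 4 of the 12 were called higher (median 1.03). Without the 5 libraries 7 of them were (median 1.76).

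Lists of vessel cells and of vessel growth held few calls, as did all genes tested, of which 4.28% were called. Myh11, the myosin of vascular smooth muscle, was at 17.5, 21.2, 17.5, 19.7 and 17.4 CPM in young runners and at 9.50, 14.3, 18.0 and 12.5 CPM in young sedentary mice, so that mouse 18627 overlapped the runners. Midlife high runners were at 8.42 to 10.8 CPM and midlife sedentary mice at 8.90 to 12.7 CPM. The difference for Myh11 was 0.58 ± 0.16 (edgeR FDR 0.0361). Pecam1, a junction protein of endothelial cells, was at 18.0 to 23.0 CPM in young runners, 14.1 to 17.4 CPM in young sedentary mice, 17.8 to 20.3 CPM in midlife high runners and 17.2 to 21.4 CPM in midlife sedentary mice. Its difference of 0.31 ± 0.10 was not called (edgeR FDR 0.0537). Of 25 genes of VEGF, Notch and angiopoietin signalling, none was called by edgeR and 5 had an unadjusted p below 0.05. Their median was 0.20, and 2 were called by DESeq2 and 2 by limma-voom, which called 1265 and 1920 of all 15407 genes tested. After adjustment for the choroid plexus score the medians of the endothelial, mural and signalling lists were 0.15, 0.08 and 0.12. Without the 5 libraries 1, 2 and 1 of their members were called higher, against 989 of all 15359 genes tested in that fit. The smallest p in the signalling list belonged to Heyl, a Notch target (0.85 ± 0.27, edgeR FDR 0.0605). Tek, the angiopoietin receptor, had 0.34 ± 0.11 (FDR 0.0667), Pdgfrb, the receptor that recruits pericytes, 0.38 ± 0.12 (FDR 0.0654), and Kdr, a VEGF receptor, 0.43 ± 0.18 (FDR 0.137). The parts of Kdr were 0.78 ± 0.14 in young and 0.35 ± 0.11 in midlife mice.

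**Figure D3:**
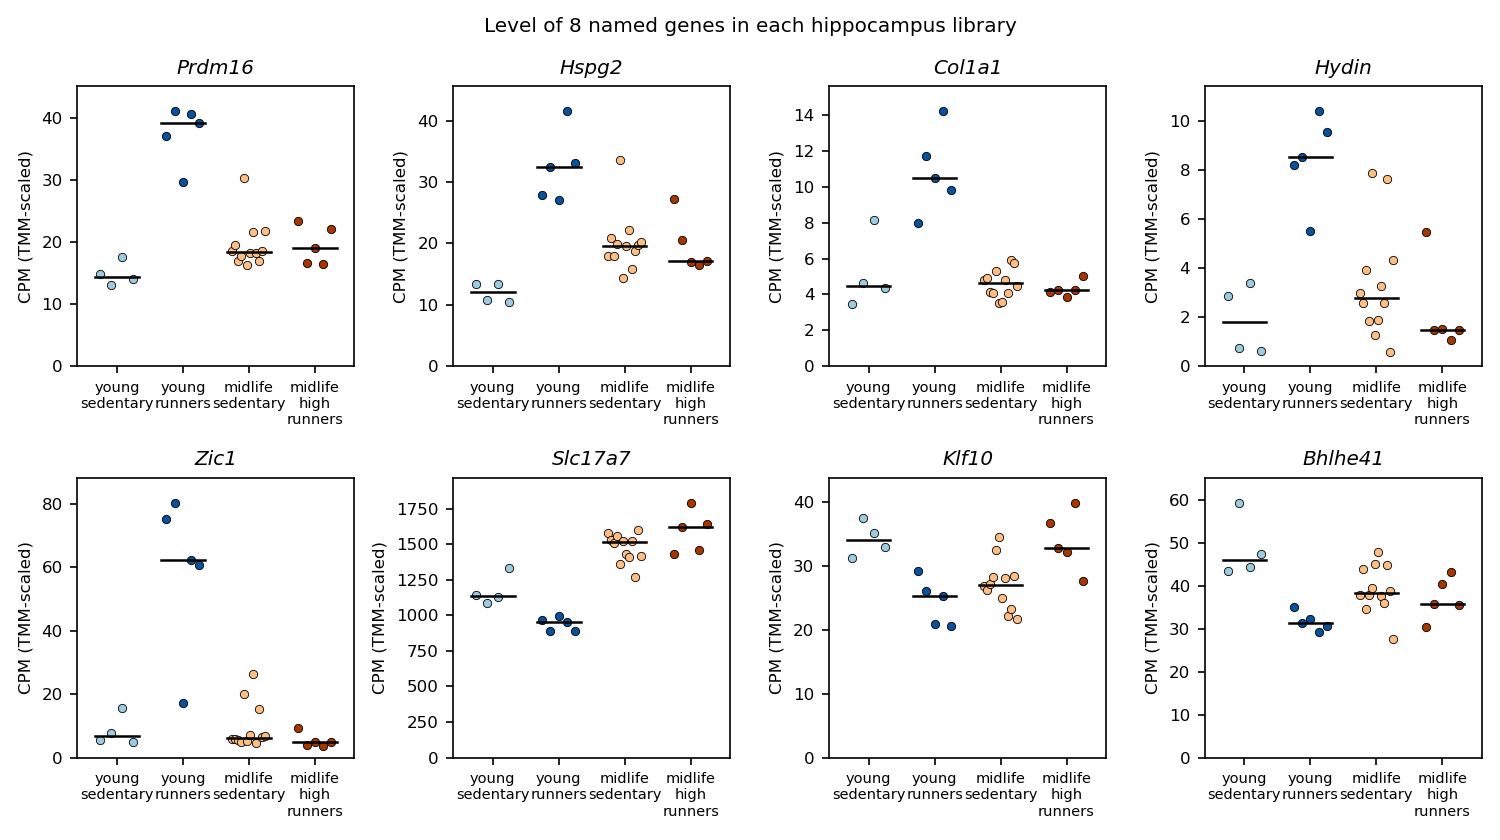
Level in CPM (TMM-scaled, y axis from 0) of 8 genes in each hippocampus library, one point per mouse, by group, with a bar at the group median. Prdm16, Hspg2 and Hydin separate young runners from young sedentary mice without overlap, Slc17a7, Klf10 and Bhlhe41 do so in the other direction, and in all 8 genes the midlife groups overlap.

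Ciliary genes gave some of the highest differences. In the list of 15 motile cilia genes, all differences were positive with a median of 2.00, 14 had an unadjusted p below 0.05, and 2 were called, Spag6l and Hydin. Hydin was at 8.20, 8.54, 5.51, 10.4 and 9.55 CPM in young runners and at 2.86, 0.742, 3.4 and 0.618 CPM in young sedentary mice. In midlife high runners it was at 5.46 CPM in mouse 6332 and at 1.06 to 1.52 CPM in the other mice, and midlife sedentary mice spread from 0.574 to 7.89 CPM with a median of 2.77. Mouse 6332 thus had the highest level of Hydin among the high runners, as it had the highest choroid plexus score, whereas midlife sedentary mouse 5915 had 7.65 CPM of Hydin at a choroid plexus score of 1.83. The difference for Hydin was 2.79 ± 0.81 (edgeR FDR 0.0452), and 1.5 ± 0.62 with that score in the fit. Hydin was called in 22 of 42 alternatives. Spag6l was at 8.14 to 9.69 CPM in young runners, 3.88 to 6.24 CPM in young sedentary mice, 4.84 to 6.56 CPM in midlife high runners and 4.28 to 8.50 CPM in midlife sedentary mice, with a difference of 1.01 ± 0.20 (edgeR FDR 0.0158). Ak7, an adenylate kinase of cilia, had a difference of 3.28 ± 0.98 that was not called (edgeR FDR 0.0504). Beyond the list, 6 of 13 axonemal dynein heavy chain genes and 6 of 23 genes named for cilia and flagella were called, all higher, with medians of 1.22 and 1.66 over all members tested. These families were chosen after their values were seen, and 2.78% of all genes tested were called higher. Dnah10 had a difference of 3.0, Dnah2 of 1.22 and Cfap44 of 1.67, and Ccdc170 and Ccdc146, coiled coil genes, had 3.76 and 3.29. Of 42 alternatives, 17 called Dnah10, 37 Dnah2, 37 Cfap44, 28 Ccdc170 and 23 Ccdc146. After adjustment for the choroid plexus score, the medians were 0.61 for the motile cilia list, 0.68 for the dyneins and 0.67 for the other family. DESeq2's Wald test called 9 of the 15 ciliary genes higher and limma-voom 13, against 738 and 1092 of all 15407 genes tested. Without the 5 libraries edgeR called 13 higher, against 989 of 15359. It called 1 with no filter on low counts, and 0 with the lanes of both ages or midlife lane 1 only.

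The choroid plexus list itself had the highest median of all lists, 3.07 over 22 genes, every one of them positive, yet none was called by edgeR and 8 had an unadjusted p below 0.05. DESeq2's Wald test called 1 of them and limma-voom with a variance for each age 15. Without the 5 libraries, which were chosen by the score of these same genes, edgeR called 19 and the median was 5.18. Kl encodes klotho, an enzyme and coreceptor made in the choroid plexus, and was at 152, 202, 235, 313 and 249 CPM in young runners. Young sedentary mice were at 21.9, 21.9, 78.1 and 29.1 CPM, midlife high runners at 133, 29.8, 25.4, 31.2 and 23.3 CPM, and midlife sedentary mice at 21.8 to 278 CPM with a median of 29.8. Kl was highest within its group in sedentary mouse 18627 and in high runner 6332, the mice with the highest choroid plexus scores of these groups. Kl is 1 of the 22 genes of that score, so this match is partly set by construction. The difference for Kl was 2.76 ± 0.92 (edgeR FDR 0.0712), Prlr, the prolactin receptor, had 3.32 ± 1.30 (FDR 0.114) and Trpv4, an ion channel, had 2.85 ± 1.19 (FDR 0.137). Wfikkn2, a secreted protein with protease inhibitor modules, was among the genes called with the largest differences and was at 3.68 to 11.6 CPM in young runners. It was at 0.591, 0.353, 2.19 and 0.442 CPM in young sedentary mice, at 1.37 CPM in midlife high runner 6332 and 0.155 to 0.424 CPM in the other high runners, and its difference of 3.78 fell to 1.17 with the choroid plexus covariate. Wfikkn2 was called in 17 of 42 alternatives.

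**Figure D4:**
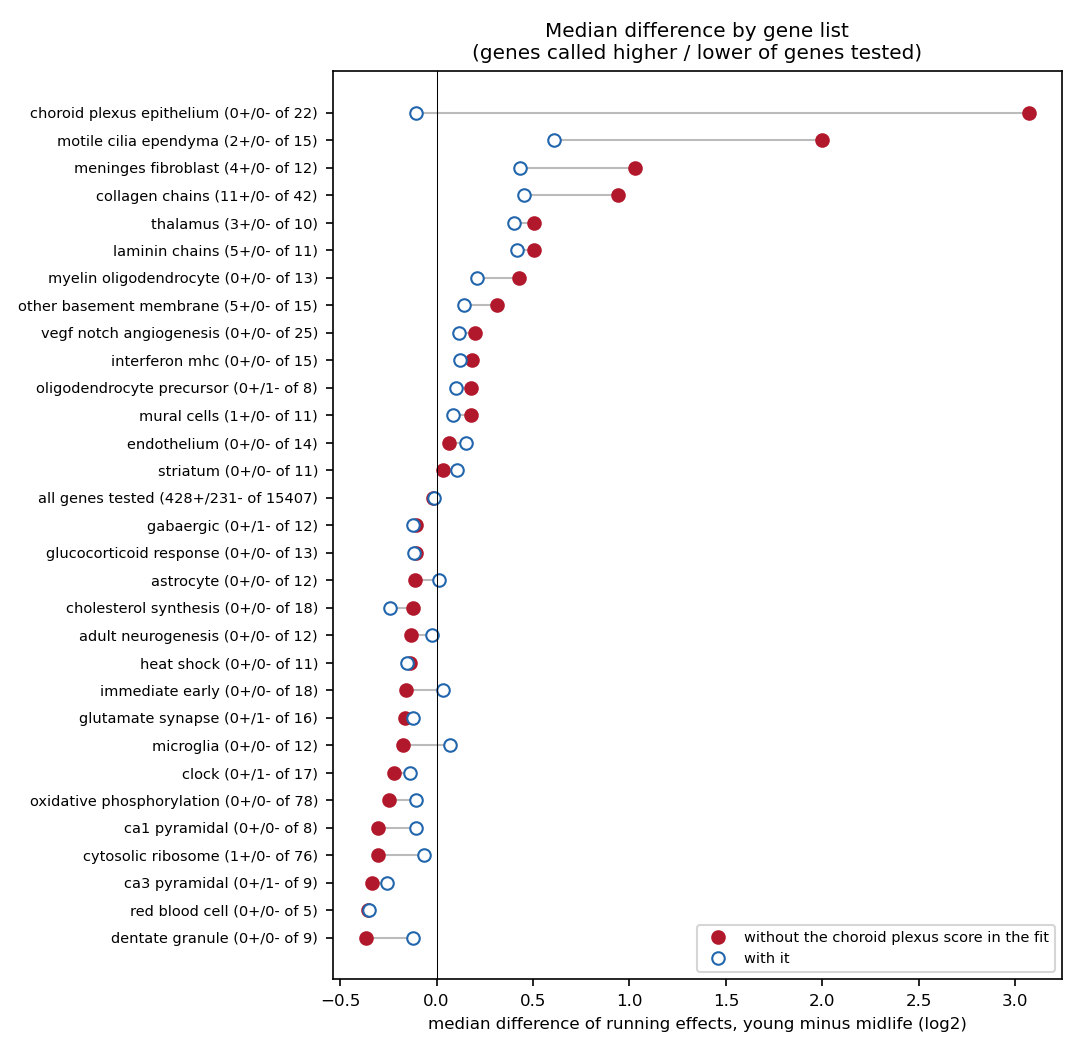
Median difference of running effects (young minus midlife, log2, x axis) of each gene list and of all genes tested, filled without and open with a covariate for the choroid plexus score, with the number of members called higher and lower after each name. The choroid plexus genes make up the covariate, so their median's move from 3.07 to -0.11 is set by construction, while the motile cilia median moves from 2.00 to 0.61 and the laminin median from 0.50 to 0.42.

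When each library's choroid plexus score was a covariate, 1 gene was called by edgeR, and 1052 had an unadjusted p below 0.05. All 659 genes kept the direction of their difference and 537 of them had an unadjusted p below 0.05 in that fit. These genes were called on the same libraries, which favours such agreement in advance. Their differences were smaller, at a median of 0.628 of those without the score, with near equal values for genes called higher (0.626) and lower (0.633), while the standard errors were at a median of 1.005 of the former ones. Every young runner scored above every young sedentary mouse, and the part of the choroid plexus in each difference was not tested.

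Zic1, Zic2, Zic4 and Zic5, zinc finger transcription factors of the developing dorsal brain and the meninges, were called higher, with differences from 1.08 to 3.6. These genes were chosen after their values were seen. Zic1 was at 75.1, 80.3, 17.3, 62.4 and 60.8 CPM in young runners and at 5.61, 7.77, 15.7 and 4.86 CPM in young sedentary mice. Midlife high runners were at 9.49, 4.09, 4.86, 3.79 and 4.83 CPM, and midlife sedentary mice at 4.57 to 26.4 CPM with a median of 6.13. Young runner 18526, at 17.3 CPM, thus lay close to sedentary mouse 18627. The highest midlife sedentary level was that of mouse 4468, whose choroid plexus score was 0.98, and young runner 18526 had a score of 5.26, so Zic1 and the score differed in these libraries. The difference for Zic1 was 3.6 ± 0.66 (edgeR FDR 0.0134) and 2.78 ± 0.63 with the choroid plexus score. Zic4 was at 4.14 to 12.7 CPM in young runners and 0.985 to 3.50 CPM in young sedentary mice, with a difference of 3.12 ± 0.65 (edgeR FDR 0.0169). Zic1 and Zic4 overlap over 3398 bases on opposite strands of chromosome 9, and since the kit does not mark strand, reads there cannot be told apart. Zic5 and Zic2 had differences of 1.42 and 1.08. Zfhx3, a homeobox regulator, was at 17.1, 21.1, 8.95, 22.6 and 17.9 CPM in young runners and at 7.49 to 8.91 CPM in young sedentary mice, again lowest in mouse 18526 among the runners, and had a difference of 1.2 ± 0.22 (edgeR FDR 0.0134).

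Markers of neurons of the thalamus, which lies beneath the hippocampus, were called higher in 3 of 10 cases (median 0.51). Tcf7l2, a Wnt effector and thalamic marker, was at 10, 5.83, 5.37, 7.74 and 7.31 CPM in young runners and 4.43, 5.23, 5.11 and 4.42 CPM in young sedentary mice. Midlife high runners were at 3.88 to 4.44 CPM and midlife sedentary mice at 3.65 to 6.92 CPM. The difference for Tcf7l2 was 0.89 ± 0.23 (edgeR FDR 0.0319), that of Amotl1, an angiomotin-like junction protein, 0.69 ± 0.14 (FDR 0.0154) and that of Synpo2, an actin-binding protein, 0.83 ± 0.18 (FDR 0.0170). Without the 5 libraries, 3 of the 10 were again called higher. The part of thalamic tissue in these differences was not tested. No gene of 11 striatal markers was called by edgeR (median 0.03, 3 with an unadjusted p below 0.05), the smallest p being that of Ppp1r1b, a dopamine-regulated phosphatase inhibitor (0.78 ± 0.23, FDR 0.0511).

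Srebf1, the regulator of fatty acid synthesis, had a small difference with a small error. It was at 47.4, 50.7, 56.3, 53.0 and 53.1 CPM in young runners and 35.7, 38.9, 39.8 and 37.3 CPM in young sedentary mice. Midlife high runners were at 51.8 to 58.8 CPM and midlife sedentary mice at 52.0 to 66.8 CPM, so that only the young groups were apart. The difference for Srebf1 was 0.53 ± 0.09 (edgeR FDR 0.0102). Of 18 genes of cholesterol synthesis, a pathway under the related factor SREBP2, none was called by edgeR (median -0.12, 5 with an unadjusted p below 0.05), and Dhcr7, which catalyses a final step of the pathway, had -0.21 ± 0.08 (FDR 0.109). After adjustment for the choroid plexus score, 11 of the 18 had an unadjusted p below 0.05, with a median of -0.24.

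The genes called lower had small differences, and several named ones are neuronal. Slc17a7 encodes VGLUT1, the transporter that loads glutamate into synaptic vesicles, and was at 965, 890, 992, 955 and 893 CPM in young runners and at 1140, 1090, 1130 and 1330 CPM in young sedentary mice. In midlife it was at 1430, 1620, 1790, 1460 and 1640 CPM in high runners and at 1270 to 1600 CPM in sedentary mice, with a median of 1510. It was thus lower in every young runner than in every sedentary one, and in midlife it overlapped. The difference was -0.43 ± 0.09 (edgeR FDR 0.0171), from parts of -0.32 ± 0.07 and 0.11 ± 0.06. It was the 1 gene called among 16 of the glutamate synapse list (median -0.17, 5 with an unadjusted p below 0.05), where Dlg4, the scaffold PSD-95, had -0.32 ± 0.10 (FDR 0.0567). Cck, the peptide cholecystokinin, was at 100 to 137 CPM in young runners, 126 to 179 CPM in young sedentary mice, 161 to 213 CPM in midlife high runners and 130 to 223 CPM in midlife sedentary mice. Its difference was -0.60 ± 0.16 (edgeR FDR 0.0349). Homer3, a postsynaptic scaffold in the CA3 list, was at 31.1 to 33.9 CPM in young runners and 36.3 to 45.2 CPM in young sedentary mice, with 47.8 to 63.7 CPM in midlife high runners and 34.6 to 59.7 CPM in midlife sedentary mice. The difference for Homer3 was -0.55 ± 0.15 (edgeR FDR 0.0328). Further neuronal genes, named after their values were seen, had differences of -0.24 (Syn1, a synaptic vesicle protein), -0.38 (Adora1, an adenosine receptor), -0.39 (Chrm1, a muscarinic receptor) and -0.35 (Grik5, a kainate receptor subunit). Of 77 potassium channel genes, another family chosen that way, 6 were called lower and 1 higher (median -0.09). Of all genes tested, 1.5% were called lower and 2.78% higher.

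The lowest differences by size came from genes of mixed roles. Klf10, a transcription factor that responds to TGF-β, was at 29.1, 26, 20.9, 25.2 and 20.5 CPM in young runners and 31.2, 37.5, 35.1 and 32.9 CPM in young sedentary mice. In midlife the order was the other way, with 36.6, 32.8, 32.1, 39.8 and 27.6 CPM in high runners and 21.7 to 34.5 CPM (median 27.0) in sedentary mice, although these groups overlapped. The difference for Klf10 was -0.81 ± 0.17 (edgeR FDR 0.0169), from parts of -0.49 ± 0.13 and 0.32 ± 0.10, and it was -0.92 ± 0.19 with the choroid plexus score. Hpdl, a mitochondrial enzyme, had -0.99 and drew most of it from midlife mice, with parts of -0.36 ± 0.23 and 0.63 ± 0.18. Cbfa2t3, a transcriptional corepressor, had -0.88 with parts of near equal size, -0.40 ± 0.16 and 0.47 ± 0.12. Foxo6, a forkhead factor of the hippocampus, had -0.79, and Rtn4r, the receptor for the outgrowth inhibitor Nogo, had -0.68. Inka1, an inhibitor of a p21-activated kinase, had -0.83 and Lrrc75a had -0.73. Of 42 alternatives, 15 called Hpdl and 21 called Inka1. Vwa5b1 lay at the other end with a difference of 3.10.

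Glial and activity-related lists held few calls, as did all genes tested, with 4.28% called. Gpr17, a receptor of maturing oligodendrocyte precursors, was at 35.6 to 43.3 CPM in young runners, 43.1 to 51.5 CPM in young sedentary mice, 32.4 to 53.1 CPM in midlife high runners and 28.3 to 35.0 CPM in midlife sedentary mice. Its difference was -0.63 ± 0.15 (edgeR FDR 0.0237), with parts of -0.25 ± 0.12 and 0.38 ± 0.09. It was the 1 called among 8 of its list, which went the other way, with 6 members above 0 and a median of 0.18. Of 17 circadian clock genes, edgeR called 1, Bhlhe41, a repressor of the clock. DESeq2's Wald test called 5 lower, limma-voom 6, separate fits of each age 6 and edgeR without the 5 libraries 5. Of all genes tested, these called 527, 828, 844 and 588 lower. edgeR called 0 clock genes with no filter, filterByExpr, the choroid plexus score, the lanes of both ages or midlife lane 1 only. The list median was -0.22, and -0.01 with the lanes of both ages. Bhlhe41 was at 29.2 to 35.0 CPM in young runners and 43.4 to 59.2 CPM in young sedentary mice, 30.3 to 43.2 CPM in midlife high runners and 27.6 to 47.7 CPM in midlife sedentary mice. The difference for Bhlhe41 was -0.53 ± 0.16 (edgeR FDR 0.0487), and it was called in 19 of 42 alternatives. Per2, another repressor, had -0.64 ± 0.20 (FDR 0.0592) and Tef, an output factor of the clock, -0.32 ± 0.10 (FDR 0.0621). In the clock list both parts were negative at the median, -0.50 in young and -0.11 in midlife mice. edgeR called none of the immediate early genes (18 tested, median -0.16, 3 with an unadjusted p below 0.05), of the glucocorticoid-responsive genes (13, -0.11, 4) or of the genes of adult neurogenesis (12, -0.13, 4). Npas4, an activity-induced factor, had 0.70 ± 0.26 (FDR 0.0996), and Fkbp5, a cochaperone induced by glucocorticoids, -0.35 ± 0.14 (FDR 0.114). Eomes, a marker of intermediate progenitors of neurons, was at 0.702 to 4.47 CPM in young runners, 0.252 to 0.671 CPM in young sedentary mice, at most 0.134 CPM in midlife high runners and at most 0.936 CPM in midlife sedentary mice. Its difference of 3.59 ± 1.16 was not called (edgeR FDR 0.0629), and was called in 7 of 42 alternatives. Neurod1, a factor of maturing granule neurons, had -0.40 ± 0.13 (FDR 0.0691).

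No member was called by edgeR in the lists for astrocytes, microglia, myelin, interferon response or heat shock. An unadjusted p below 0.05 was found for 4 of 12, 0 of 12, 1 of 13, 3 of 15 and 2 of 11 genes, against 3926 of all 15407. The medians of these lists were -0.11, -0.17, 0.43, 0.19 and -0.14. The dentate granule (9 genes), CA1 (8) and red blood cell (5) lists also held no call and no gene with an unadjusted p below 0.05, with medians of -0.37, -0.30 and -0.35. The members with the smallest p were Aldoc in astrocytes (-0.32 ± 0.12), C1qc in microglia (-0.27 ± 0.16), Aspa in myelin (0.82 ± 0.33), Tap1 in the interferon list (0.50 ± 0.17) and Hspa8 among chaperones (-0.22 ± 0.09). Lct, a dentate marker, had -0.99 ± 0.54 and Hba-a2, an alpha globin, -0.46 ± 0.61. The subunits of oxidative phosphorylation, 78 tested, held no call by edgeR and 25 genes with an unadjusted p below 0.05, with a median of -0.25, from medians of -0.14 in young and 0.11 in midlife mice. With young sedentary mouse 18606 kept, 29 of these subunits were called lower and their median was -0.62, and without the 5 libraries 1 was called higher and 1 lower. Ndufs4, a complex I subunit, had the smallest p of them at -0.35 ± 0.11 (FDR 0.0691).

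Among 76 cytosolic ribosomal protein genes the median was -0.31, 26 had an unadjusted p below 0.05, and the 1 called was Rps12. With mouse 18606 kept, 46 of them were called lower and the median was -0.77. Rps12 had no read in the 4 young sedentary mice and in 2 young runners, and 2.91, 20.5 and 11.2 CPM in the other 3 young runners, while every midlife library held 21.2 to 53.1 CPM. Ribosomal protein genes have near-identical copies elsewhere in the genome, between which counting can split reads, so Rps12 is uncertain and its fitted difference is no estimate of a fold. The sign of that difference reversed with mouse 18606 kept, at -0.30.

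The number of genes called depended on single mice. Without young sedentary mouse 18681, 3 genes were called, and without midlife high runner 6332, 1630, of which 658 were among the 659. Over the 26 mice, all of the 659 genes that were tested kept their direction, which is favoured in advance because nearly all libraries were shared with the main fit. With the sequencing lanes of both ages as covariates 0 genes were called by edgeR and 686 had an unadjusted p below 0.05, and with the midlife lane alone 604 were called. Of the lanes of young mice only lane 6 held both runners (3) and a sedentary mouse, 18627, so that lane and running can hardly be told apart in young mice and the young part of that fit rests on this mouse. With midlife lane 1 only, which held 2 high runners (3597 and 6332) and 6 sedentary mice, 0 were called (2472 with an unadjusted p below 0.05). With midlife lane 5 only, which held 3 high runners and 6 sedentary mice, 862 were called.

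**Figure D5:**
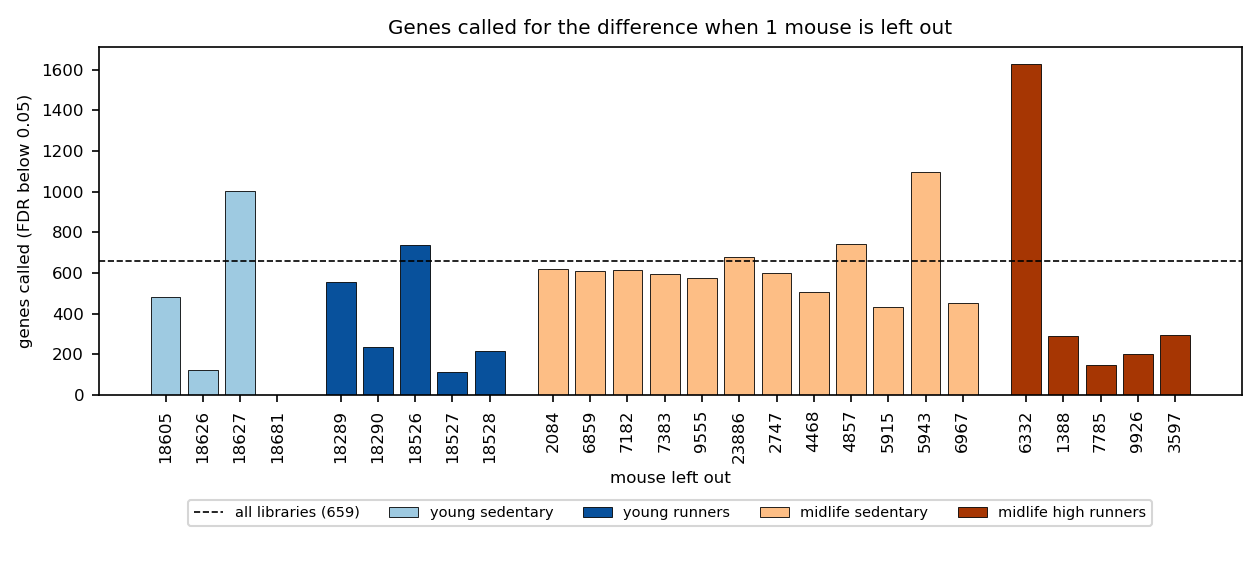
Bars give the genes called for the difference (edgeR FDR below 0.05, y axis from 0) when the mouse named on the x axis was left out, by group, with a dashed line at the 659 of all libraries. The count falls to 3 without young sedentary mouse 18681 and reaches 1630 without midlife high runner 6332.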

How the data were processed

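Hippocampal poly(A) RNA was sequenced by the study with an unstranded TruSeq RNA v2 kit as paired reads. The authors trimmed reads, aligned them to mm10 with Bowtie2 2.2.0 and quantified genes with RSEM 1.2.12, and the deposited tables hold whole-number counts per gene and library, without normalization. In the table of young mice, 46 further count columns belong to no sample analysed here and were not used. The authors' own comparisons, with fold changes and p-values, were not used either. Groups came from the labels. GENCODE vM21 (GRCm38, the same assembly as mm10) gave a symbol to 37607 of 38924 identifiers (96.6%).

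Counts of 32 libraries were fitted with edgeR 4.0.16 in R 4.3.3, with 1 mean per group, TMM scaling, genes above 1 CPM in at least 2 libraries, and the quasi-likelihood F-test in the manner of the edgeR 3 series that the authors used (3.20.9). Standard errors come from the log2 fold change and the F statistic. P-values were adjusted over all genes tested. List scores are the mean log2(CPM + 0.5). The smallest chi-square per degree of freedom among 111 pairs of libraries of the same group was 5.23, so no pair agreed within sampling noise. Each library of a group came from its own mouse by the labels, and p-values measure the spread between mice. The scripts were tested on simulated counts.

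The comparison, gene lists and tests were chosen with earlier results of these data known. Named genes were the 8 highest and 8 lowest differences among called genes that averaged 1 CPM or more and had a symbol that is not a predicted name, the 6 smallest p-values, up to 3 genes with the smallest p in each list, the gene called after adjustment for the choroid plexus score, and further called genes of lists with 5 or more calls; others are said to be chosen after their values were seen, and some genes that these rules gave are not reported here. Alternatives were DESeq2 1.42.0 and its size factors, limma 3.58.1 (voom), no filter and filterByExpr, edgeR 4's method, separate fits, mouse 18606 kept, the choroid plexus score or lanes as covariates, and each mouse left out in turn.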

Additional observations from a re-analysis of the deposited data

Results flagged for a closer look

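The difference between the running effects of the ages passed edgeR's test (FDR below 0.05) for 59 of the named genes, and each such difference was set aside for a closer look. The 3 genes with the smallest p had differences (log2, young minus midlife) of 1.34 for Prdm16, 1.46 for Hspg2 and 0.53 for Srebf1. Differences of collagen chains were 1.37 for Col5a3, 1.16 for Col1a1, 1.48 for Col1a2, 2.66 for Col6a3, 2.13 for Col6a5, 1.78 for Col6a6, 1.40 for Col4a5, 1.80 for Col18a1, 0.73 for Col27a1, 0.99 for Col15a1 and 0.82 for Col2a1. Differences of laminins and other matrix genes were 0.50 for Lamb2, 1.03 for Lama1, 1.21 for Lama5, 0.59 for Lama2, 0.64 for Lamc3, 0.78 for Nid1, 1.72 for Nid2, 0.80 for Tinagl1, 0.90 for Fbln5 and 1.35 for Cped1, and Myh11 of smooth muscle had 0.58. Ciliary and coiled coil genes had 1.01 for Spag6l, 2.79 for Hydin, 3.0 for Dnah10, 1.22 for Dnah2, 1.67 for Cfap44, 3.76 for Ccdc170 and 3.29 for Ccdc146. Zic and other regulators had 3.6 for Zic1, 1.08 for Zic2, 3.12 for Zic4, 1.42 for Zic5 and 1.2 for Zfhx3, and the thalamic markers 0.69 for Amotl1, 0.83 for Synpo2 and 0.89 for Tcf7l2. The fitted differences were 3.78 for Wfikkn2, 3.10 for Vwa5b1 and 10.66 for Rps12, the last from libraries without a single read and therefore no estimate of a fold. Negative differences were -0.99 for Hpdl, -0.88 for Cbfa2t3, -0.83 for Inka1, -0.81 for Klf10, -0.79 for Foxo6, -0.73 for Lrrc75a and -0.68 for Rtn4r. Synaptic, glial and clock genes had -0.43 for Slc17a7, -0.60 for Cck, -0.55 for Homer3, -0.24 for Syn1, -0.38 for Adora1, -0.39 for Chrm1, -0.35 for Grik5, -0.63 for Gpr17 and -0.53 for Bhlhe41.

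In groups of 4 or 5 mice, a library was also set aside where its gap to the next one took up most of the range of the group (Dixon's 95% limit). This held for 8 of 90 list scores and 10 of 72 gene levels, where chance gives about 1 in 20. Midlife high runner 6332 had 6 of these 18, with a choroid plexus score of 4.59, a motile cilia score of 2.40, and levels of 1.37 CPM for Wfikkn2, 9.49 CPM for Zic1, 133 CPM for Kl and 5.46 CPM for Hydin. Young sedentary mouse 18627 had 4, with a glutamate synapse score of 8.51 and levels of 2.19 CPM for Wfikkn2, 3.50 CPM for Zic4 and 78.1 CPM for Kl. Young runner 18526 stood apart with scores of 4.59 for microglia, 5.79 for oxidative phosphorylation and 6.09 for cytosolic ribosomal proteins, and with 4.14 CPM of Zic4 and 137 CPM of Cck. The remaining ones were the mural cell score of high runner 9926 (3.41), the red blood cell score of young sedentary mouse 18605 (1.78) and the 7.71 CPM of Zfhx3 in high runner 7785.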

How the results depend on the processing

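The 659 genes called became 650 with DESeq2's size factors, 609 with edgeR's filterByExpr, 773 with edgeR 4's quasi-likelihood method, 903 with only the 26 libraries of the contrast and 604 with the midlife lane as a covariate. Larger changes were 342 without a filter on low counts, 1265 with DESeq2's Wald test, 1920 with limma-voom and a variance for each age, 2353 with each age fitted apart and 2416 with mouse 18606 kept, where 39.2% of calls were higher against 64.9%. For the separate fits, p came from a normal distribution that ignores how few libraries each age had, which favours calls. The count was 1 with the choroid plexus score as a covariate and 0 with the lanes of both ages. The analyses of 1 midlife lane and those without several libraries were chosen after seeing the data: 0 genes with lane 1, 862 with lane 5, 1577 without the 5 libraries whose choroid plexus score stood apart in their group, and 2037 without mice 18627 and 6332 alone. The last 2 removed libraries by that score, which moves by construction the differences of genes that follow it. Removing 18627 and 6332 raises them, and removing the midlife sedentary mice among the 5 lowers them. Leaving out 1 mouse at a time gave 3 to 1630 genes. Counts under 440 came without young sedentary mice 18681 (3) and 18626 (126), without young runners 18527 (112), 18528 (216) and 18290 (237), without high runners 7785 (150), 9926 (201), 1388 (289) and 3597 (298), and without midlife sedentary mouse 5915 (435). Counts above 989 came without high runner 6332 (1630), young sedentary mouse 18627 (1002) and midlife sedentary mouse 5943 (1097). The cause of these changes was not tested.

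Of the 59 named genes called, 2476 values under 42 alternatives were computed, of which 1938 kept direction and call, 537 kept the direction alone and 1 reversed, Rps12 at -0.30 with mouse 18606 kept. The alternatives share most libraries with the fit that called these genes, so they are no independent check. Among 26 named genes not called, 145 of 1092 values were called and 0 reversed. No paired analysis was possible because no mouse or number is shared between groups. Between mice, edgeR's biological coefficient of variation came to 0.0991 for young mice alone, 0.16 for midlife mice alone and 0.145 for both together. In counts simulated from these libraries, 84% of 100 genes whose effects differed 2-fold and 52% of 100 that differed 1.5-fold were recovered, and 5.56% of calls were false, so smaller differences were often not detectable in such counts. The simulation drew each gene independently, with 1 spread per gene for both ages and no lane or choroid plexus score shared by many genes. These rates may therefore not hold for the real libraries.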
